A study of Mus musculus with 11 samples.

Results

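Integrins and adhesion receptors, the surface proteins by which blood progenitors hold to matrix, stroma and vessel walls, were taken as a gene set by symbol alone: 18 integrin alpha chains, 8 integrin beta chains, and Cd34, Cd44, Vcam1, Icam1, Icam2, Selplg, Pecam1 and Epcam. These 34 genes were among 19938 genes with a probe set of their own, and the rule itself uses no measured value. Where a gene had several probe sets, the one with the highest mean was used, which touched only Itgad. Transcript levels were measured on 11 Affymetrix arrays of sorted cells from C57BL/6J mice. The 3 marrow populations, with 2 arrays each, were HSC, the hematopoietic stem cells, LMPP, the lymphoid-primed multipotent progenitors, and CLP, the common lymphoid progenitors. From thymus came the earliest precursors (ETP, 2 arrays) and the later stages double negative 2 (DN2), with a single array, and double negative 3 (DN3), with 2. The labels name no treatment or engineered allele in any group, and no age or sort gate. They number the replicates without saying whether these are separate animals or pools, so p-values may measure only technical spread.

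Integrins are pairs of an alpha and a beta chain that bind matrix proteins or receptors on other cells, and inside the cell connect to the cytoskeleton through talin and kindlin. In marrow, integrin alpha 4 with beta 1 binds VCAM1 on stroma and helps to hold stem and progenitor cells in place. Progenitors reach the thymus from blood, with selectin ligands such as PSGL1 (Selplg) and integrins taking part in their entry, and then move through the thymus as they mature. CD44 binds hyaluronan, and CD34 is a sialomucin of early progenitors.

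The promoters of the 5 members with the smallest p-values over the populations among the 22 that had an entry are shown because several of the results below turn on these genes. Each runs from 250 bases before to 50 after the annotated start and is written 5′ to 3′ on the gene's own strand, from RefSeq on build GRCm38.p6. Capitals mark 3 short motifs on either strand: the E box CACCTG bound by E proteins, TGTGGT of RUNX factors and AGATAA of GATA factors. No match of one motif overlapped a match of another in these windows.
Cd34, chr1:194938571-194938870, plus strand: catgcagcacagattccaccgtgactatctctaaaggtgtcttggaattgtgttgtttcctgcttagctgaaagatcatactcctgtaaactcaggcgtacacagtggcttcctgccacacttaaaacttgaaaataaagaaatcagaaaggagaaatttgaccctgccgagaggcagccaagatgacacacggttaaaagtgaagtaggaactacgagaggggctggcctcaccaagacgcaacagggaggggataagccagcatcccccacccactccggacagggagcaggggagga
Cd44, chr2:102901616-102901915, minus strand: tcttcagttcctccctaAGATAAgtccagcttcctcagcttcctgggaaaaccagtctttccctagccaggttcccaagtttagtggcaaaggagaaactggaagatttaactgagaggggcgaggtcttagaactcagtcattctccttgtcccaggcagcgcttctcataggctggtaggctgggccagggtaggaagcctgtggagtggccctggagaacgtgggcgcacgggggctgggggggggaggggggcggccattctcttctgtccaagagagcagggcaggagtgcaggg
Epcam, chr17:87635729-87636028, plus strand: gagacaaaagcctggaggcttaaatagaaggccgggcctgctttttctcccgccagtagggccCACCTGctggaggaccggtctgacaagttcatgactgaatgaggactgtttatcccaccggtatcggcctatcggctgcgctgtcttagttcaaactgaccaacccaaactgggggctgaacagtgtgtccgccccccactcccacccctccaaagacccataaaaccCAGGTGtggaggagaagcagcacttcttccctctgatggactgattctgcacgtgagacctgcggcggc
Itga9, chr9:118711442-118711741, plus strand: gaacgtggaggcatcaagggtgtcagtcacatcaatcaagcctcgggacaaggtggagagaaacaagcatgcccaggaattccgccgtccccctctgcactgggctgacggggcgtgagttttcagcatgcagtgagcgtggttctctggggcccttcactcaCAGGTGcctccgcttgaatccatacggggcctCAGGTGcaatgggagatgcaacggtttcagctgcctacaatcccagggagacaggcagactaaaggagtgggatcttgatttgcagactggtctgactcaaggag
Itga4, chr2:79255176-79255475, plus strand: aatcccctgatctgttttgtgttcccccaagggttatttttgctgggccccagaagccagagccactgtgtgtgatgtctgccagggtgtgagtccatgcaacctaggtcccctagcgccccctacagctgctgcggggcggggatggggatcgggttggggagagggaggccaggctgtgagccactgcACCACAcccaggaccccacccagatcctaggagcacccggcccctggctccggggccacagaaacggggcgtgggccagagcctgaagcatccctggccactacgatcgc
The E box letters were in 2 of these 5 windows (Epcam and Itga9, with a pair of matches each) and in 20.2% of all 32851 promoters in the table. The RUNX letters were in Itga4 alone of the 5 and in 16.8% of all promoters, and the GATA letters in Cd44 alone and in 11.2% of all. In Epcam the matches began at -187 and -19 relative to the start, in Itga9 at -87 and -55, in Itga4 at -60 and in Cd44 at -233. The Cd34 window held none of these letters.

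All levels are log2 intensities, in which 1 unit is a 2-fold difference, and a fold is a ratio of intensities between populations for the same gene. The median gene of an array stood between 6.12 and 6.24, and across genes the correlation r between replicate arrays was lowest in HSC (0.988) and highest in DN3 (0.996). The labels were set against markers. Slamf1 averaged 7.54 in HSC against 3.99 to 5.41 elsewhere, Ebf1 9.27 in CLP against 4.33 to 5.08, and Il2ra 11.40 in DN2 and 11.27 in DN3 against at most 7.32. Flt3, a marker of LMPP, averaged 7.25 in HSC, 10.61 in LMPP and 10.58 in CLP. Hes1, a Notch target listed for ETP, averaged at most 6.65 in marrow, 8.23 in ETP, 8.24 in DN2 and 8.40 in DN3. Neither gene singled out its population. Hlf and Mecom, listed for HSC, did not either, being about as high in LMPP (8.95 and 7.02) as in HSC (8.62 and 7.06). Rag1, listed for CLP and DN3, averaged 10.98 and 11.54 there. The LMPP list as a whole averaged 9.22 and 9.26 in LMPP and 9.28 and 9.48 in CLP, and the ETP list 8.22 and 8.20 in ETP and 9.39 to 9.58 in DN2 and DN3. A gene used as a sort marker differs by the sort itself. Cd44 commonly serves to separate the double negative stages and Cd34 to gate marrow progenitors. Because these are bulk samples, fewer cells carrying a transcript and less transcript per cell cannot be told apart.

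Over the 6 populations, 15 of the 34 members (44.1%) differed in the limma F test at adjusted p under 0.05, against 12.2% of all genes. They were 9 of the 26 integrin chains and 6 of the other 8 genes. The population means of a member spanned a median of 0.69 on the log2 scale, against 0.34 over all genes. Of the 15, 4 were highest in HSC, 2 in LMPP, 2 in CLP, 3 in ETP, 1 in DN2 and 3 in DN3, and 6 were lowest in DN3. The call of Cd34, Cd44, Epcam, Itga4, Itga6 and Itga9 held without each of the 11 arrays in turn. The count of members called was 9 without ETP replicate 1 or ETP replicate 2, 8 without DN3 replicate 1 and 7 without DN3 replicate 2. Of the 34 members, 13 stayed below the gene median on every array, among them Itgae, Itgam and Itgax of the 15 called. No detection calls were used, and a fold measured against a level near background is smaller than the ratio of transcripts.

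**Figure D1:**
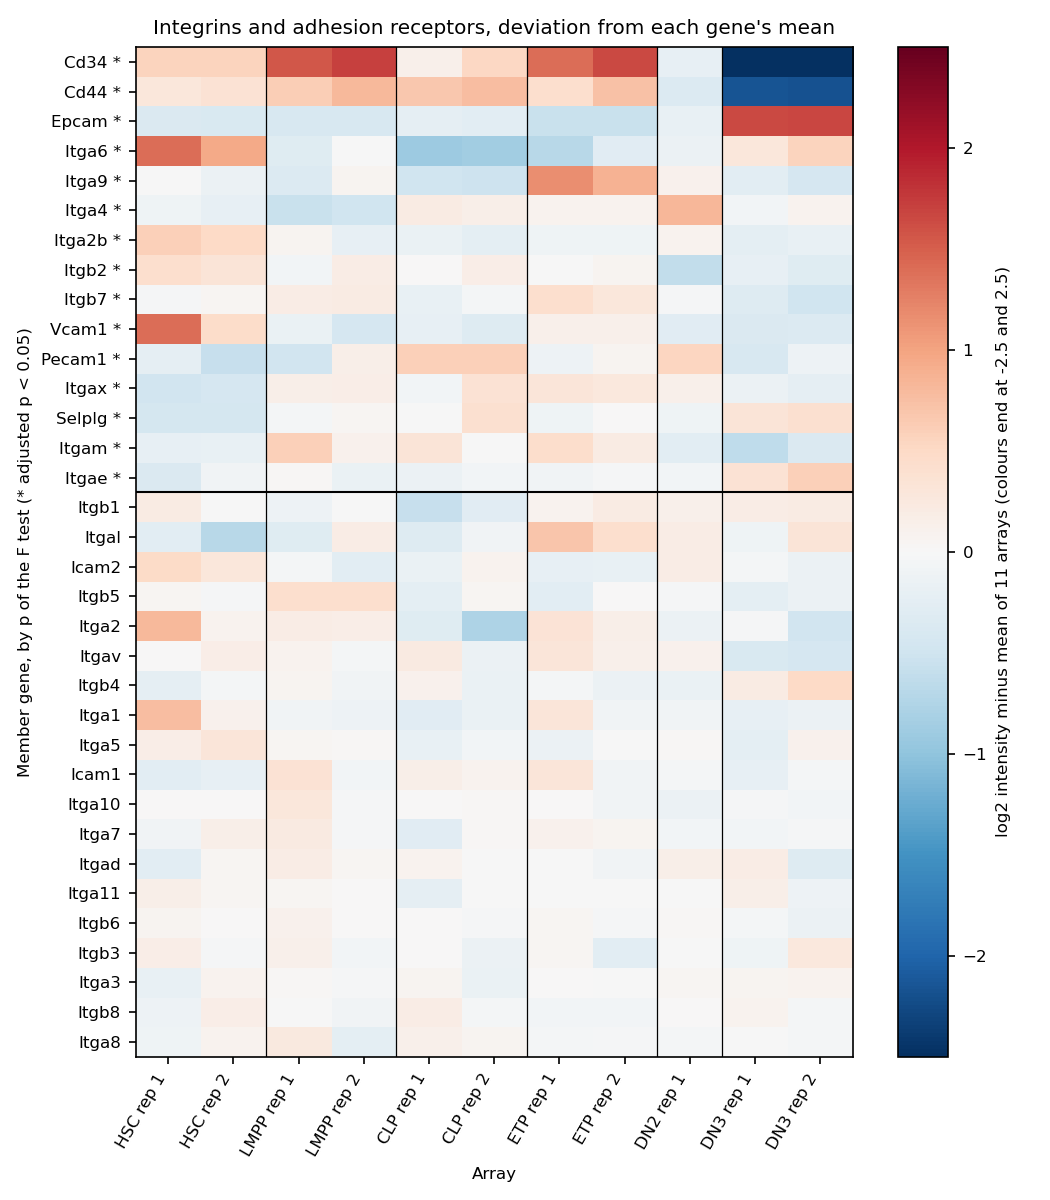
Deviation of each of the 34 members from its own mean over the 11 arrays (colour, log2 intensity), with members in rows ordered by p of the F test and arrays in columns grouped by population. The 15 rows above the line were called at adjusted p under 0.05; Cd34 and Cd44 are lowest in DN3, where Epcam is highest.

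Cd34 and Cd44 fell steeply within the thymus, and Epcam rose in DN3. Cd34 measured 10.08 on both HSC arrays, 11.08 and 11.24 in LMPP, 9.65 and 10.04 in CLP, 10.92 and 11.17 in ETP, 9.32 in DN2, and 5.39 and 5.78 in DN3. The LMPP and ETP arrays were the highest and overlapped each other, and both DN3 arrays lay far below every other array. Cd34 was 2.11-fold higher in LMPP than in HSC (difference 1.08 ± 0.17, SE; adjusted p = 0.0068), 2.49-fold lower in CLP than in LMPP (adjusted p = 0.0038) and 2.3-fold higher in ETP than in CLP (adjusted p = 0.00358). The first call was lost without LMPP replicate 2 (adjusted p = 0.0624), the second likewise (adjusted p = 0.0515) and in a fit of the 2 groups alone (adjusted p = 0.0635), and the third without ETP replicate 2 (adjusted p = 0.0515). From ETP it was 3.29-fold lower in DN2 (adjusted p = 0.00307), and from DN2 it was 13.3-fold lower in DN3 (adjusted p = 9.51e-06). ETP and LMPP were not separated (difference -0.12, 95% interval -0.50 to 0.26).

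Cd44, the hyaluronan receptor, measured 8.08 and 8.16 in HSC, 8.41 and 8.61 in LMPP, 8.46 and 8.57 in CLP, 8.22 and 8.52 in ETP, 7.46 in DN2, and 5.63 and 5.62 in DN3. The 4 replicated populations before DN2 lay close together, DN2 was below all of them and DN3 lower again. Cd44 was 1.88-fold lower in DN2 than in ETP (adjusted p = 0.0251) and 3.56-fold lower in DN3 than in DN2 (adjusted p = 0.000178), which made DN3 6.71-fold below ETP (adjusted p = 4.92e-07). The DN2 call was lost without ETP replicate 2 (adjusted p = 0.135) and without DN3 replicate 1 or 2 (adjusted p = 0.0613 each). Between CLP and LMPP the difference was 0.00 (95% interval -0.29 to 0.30).

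Epcam, an epithelial adhesion molecule that some thymocytes also carry, measured between 4.99 and 5.36 on all 9 arrays outside DN3 and 7.20 and 7.23 in DN3. Its DN3 arrays stood apart from every other array, and those outside DN3 were all below the gene median. It was 3.61-fold higher in DN3 than in DN2 (adjusted p = 2.63e-05) and 4.67-fold higher than in ETP (difference 2.22 ± 0.10, SE; adjusted p = 3.62e-07). Thymic epithelial cells carry Epcam too. Their 8 measured markers averaged 6.04 and 6.16 in DN3 against 6.06 to 6.47 elsewhere. None was called higher by limma in DN3 than in ETP (2.68% of all genes were) or DN2 (0.702%). At an unadjusted p under 0.05, 0 were higher than in ETP and 1 higher than in DN2. Foxn1 stood at 6.00 in DN3 and 5.81 to 6.05 elsewhere, and Krt5 at 5.23 in DN3 and 5.16 to 5.25 elsewhere. The F test called 2 of the 8 (12.2% of all genes were). Ccl25 (adjusted p = 0.0434) averaged 7.77 in DN3, 7.35 in DN2, 7.89 in ETP and 7.21 to 7.58 in marrow. Krt18 (adjusted p = 0.00011) averaged 5.89 in DN3 and 6.04 to 8.08 elsewhere. The part of thymic epithelial cells in the Epcam level was not tested.

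Selplg, which encodes the selectin ligand PSGL1, was lowest in HSC (8.43 and 8.44) and highest in DN3 (9.19 and 9.27). It stood at 8.83 and 8.92 in LMPP, 8.86 and 9.28 in CLP, 8.77 and 8.88 in ETP, and 8.77 in DN2. Both HSC arrays lay below every other array, while 1 CLP array reached the DN3 level. The F test called it (adjusted p = 0.0366), none of the 7 comparisons did, and LMPP against HSC had adjusted p = 0.17. The F test call was lost without any 1 of the HSC, LMPP, ETP and DN3 arrays (adjusted p from 0.0589 to 0.155).

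**Figure D2:**
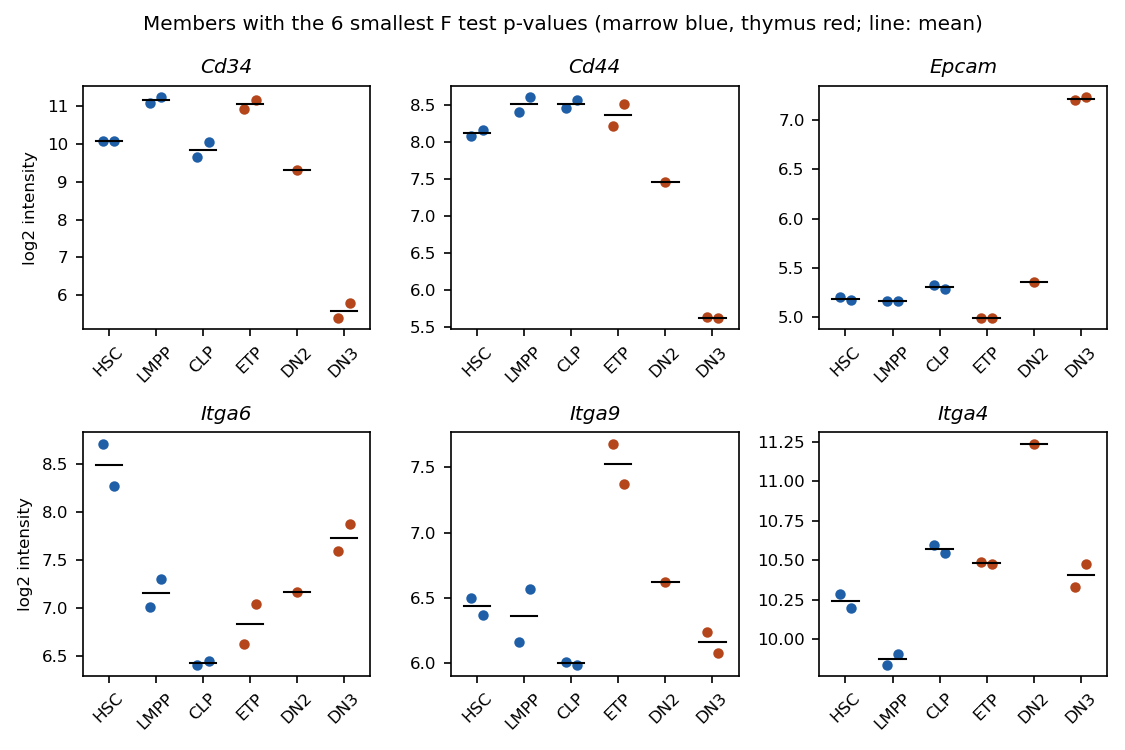
Log2 intensity on each array (points) and population mean (line) for the 6 members with the smallest F test p-values, marrow in blue and thymus in red; each panel has its own vertical scale. Itga6 is highest in HSC, Itga9 in ETP, Itga4 in DN2 and Epcam in DN3, and the DN3 points of Cd34 and Cd44 lie below all others.

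Among the integrins of matrix and VCAM1, alpha 4, alpha 6 and alpha 9 each peaked in a different population. Itga6, the alpha chain of laminin receptors, measured 8.71 and 8.27 in HSC, 7.01 and 7.30 in LMPP, 6.41 and 6.45 in CLP, 6.63 and 7.04 in ETP, 7.17 in DN2, and 7.59 and 7.87 in DN3. HSC was highest, CLP lowest and DN3 second, so the levels fell and then climbed again along the path. Itga6 was 2.53-fold lower in LMPP than in HSC (difference -1.34 ± 0.19, SE; adjusted p = 0.00362) and 1.86-fold higher in DN3 than in ETP (adjusted p = 0.016). The first call was lost in a fit of the 2 groups alone (adjusted p = 0.0575), the second without ETP replicate 1 (adjusted p = 0.159) and without DN3 replicate 2 (adjusted p = 0.171). The step from LMPP to CLP, 1.65-fold lower without overlap of the arrays, missed the threshold (adjusted p = 0.145).

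Itga9, which pairs with beta 1 to bind tenascin, VCAM1 and osteopontin, measured 7.68 and 7.37 in ETP and 6.62 in DN2. It stood at 6.50 and 6.37 in HSC, 6.16 and 6.57 in LMPP, 6.01 and 5.99 in CLP, and 6.24 and 6.08 in DN3. Both ETP arrays were above every other array. ETP was 2.23-fold above LMPP (adjusted p = 0.00336), 2.88-fold above CLP (adjusted p = 0.000412) and 2.58-fold above DN3 (adjusted p = 0.000311), and these 3 calls held without each array in turn. In a fit of the 2 groups alone the LMPP comparison had adjusted p = 0.071. DN2 was 1.88-fold below ETP and not called (adjusted p = 0.0703).

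Some markers of other cells were also higher in ETP, and others were not. The mean over 9 measured dendritic cell markers was 6.65 and 6.71 in ETP against 5.32 to 6.49 on the other arrays. Against LMPP, 4 of the 9 were called higher in ETP (1.44% of all genes were) and 1 lower (0.868%). The lower one was Flt3, at 8.61 in ETP. Against CLP, 4 were higher in ETP (1.41% of all genes were) and 2 lower (1.1%), and Siglech stood at 8.05 in CLP and 5.54 in ETP. H2-Aa, an MHC class II chain, averaged 9.37 in ETP against 5.38 to 6.14 elsewhere, whereas the dendritic cell genes Zbtb46 (5.40 to 5.60), Xcr1 (4.21 to 4.49) and Clec9a (3.90 to 4.31) showed no population that stood out. Of 8 neutrophil markers, 2 were called higher in ETP than in LMPP (1.44% of all genes were). The mean over the 8 was 5.61 and 5.80 in ETP against 4.90 to 5.49 elsewhere. The granule genes Ngp (4.63) and Ltf (4.72) were low in ETP. The mean over 7 mast cell and basophil markers was 5.98 and 6.11 in ETP, above LMPP (5.28 and 5.29) but not above HSC (6.33 and 6.38). The part of such cells in the Itga9 level was not tested.

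Itga4, the alpha chain that pairs with beta 1 or beta 7, measured 10.29 and 10.20 in HSC, 9.84 and 9.91 in LMPP, 10.60 and 10.55 in CLP, 10.49 and 10.48 in ETP, 11.24 in DN2, and 10.33 and 10.48 in DN3. LMPP was the lowest population and the single DN2 array the highest. It was 1.63-fold higher in CLP than in LMPP (adjusted p = 0.0124) and 1.53-fold higher in ETP than in LMPP (adjusted p = 0.0166). It was 1.69-fold higher in DN2 than in ETP (adjusted p = 0.0259) and 1.79-fold lower in DN3 than in DN2 (adjusted p = 0.0091), and DN3 returned to the ETP level (difference -0.08, 95% interval -0.32 to 0.16). The CLP call was lost without any 1 of the 4 LMPP and CLP arrays (adjusted p from 0.0626 to 0.0859), and the ETP call without any 1 of the LMPP and ETP arrays (adjusted p from 0.0684 to 0.104). In fits of the 2 groups alone they had adjusted p = 0.118 and 0.0859. The DN2 call was lost without any 1 of the ETP and DN3 arrays (adjusted p from 0.0539 to 0.122) and with the replicate number as a block (adjusted p = 0.0586). The DN3 call was lost without DN3 replicate 1 (adjusted p = 0.08). Without the DN2 array the population means of Itga4 spanned 0.70 instead of 1.37.

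Itgb1, the beta chain that partners alpha 4, alpha 6 and alpha 9, measured 9.31 and 9.59 in CLP and between 9.76 and 10.09 on the other arrays, and missed the threshold of the F test (adjusted p = 0.0608). It passed without HSC replicate 2 (adjusted p = 0.0487), without the DN2 array (adjusted p = 0.0417), with quantiles normalized once more (adjusted p = 0.0419) and with an intensity trend and robust prior (adjusted p = 0.045). Both CLP arrays were the lowest of all 11. ETP was 1.49-fold above CLP (adjusted p = 0.0528), and DN3 did not differ from ETP beyond the spread (difference 0.04, 95% interval -0.25 to 0.34). The collagen and laminin chains Itga1, Itga2, Itga3, Itga7, Itga10, Itga11 and Itgb4, and the fibronectin-type chains Itga5 and Itga8, were not called over the populations. The widest of these was Itga2, with 6.52 and 5.80 in HSC and 5.41 and 4.93 in CLP (adjusted p = 0.112 in the F test). Itga2 passed with the replicate number as a block (adjusted p = 0.0169), and both Itga2 and Itga1 passed without HSC replicate 2 (adjusted p = 0.0282 each).

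The beta 2 integrins are adhesion receptors of leukocytes. Over the populations 3 of their 5 genes were called (12.2% of all genes were), and each of these calls was lost without some single arrays. Itgb2, the beta chain, was highest in HSC (7.21 and 7.10) and lowest in DN2 (6.16), with 6.72 and 6.97 in LMPP, 6.80 and 6.96 in CLP, 6.78 and 6.86 in ETP, and 6.58 and 6.49 in DN3. Every marrow and ETP array lay above the DN2 and DN3 arrays. The F test gave adjusted p = 0.0129, which became 0.062 without the DN2 array and 0.0514 without DN3 replicate 2, and none of the 7 comparisons called it.

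Itgax, the alpha chain CD11c, was lowest in HSC (5.21 and 5.27) and stood at 5.83 and 5.85 in LMPP, 5.63 and 6.05 in CLP, 5.99 and 5.95 in ETP, 5.82 in DN2, and 5.55 and 5.47 in DN3. Both HSC arrays lay below all others. LMPP was 1.52-fold above HSC (adjusted p = 0.0474), a call lost without any 1 of the HSC, LMPP, ETP and DN3 arrays (adjusted p from 0.0796 to 0.182) and with the replicate number as a block (adjusted p = 0.0621). It was also lost with quantiles normalized once more, centred arrays, array weights and a fit of the 2 groups alone (adjusted p from 0.0756 to 0.134). The same 8 arrays, left out singly, ended its F test call (adjusted p = 0.031, then 0.0585 to 0.115), as did array weights (adjusted p = 0.0549). Dendritic cells carry CD11c, and their 9 markers averaged 5.61 and 5.71 in HSC, 6.25 and 6.22 in LMPP, and 6.37 and 6.49 in CLP. In thymus they averaged 6.65 and 6.71 in ETP, 5.50 in DN2, and 5.32 on both DN3 arrays. In DN2 the marker mean (5.50) was below that of HSC (5.61 and 5.71), and Itgax (5.82) was above its HSC values (5.21 and 5.27). Of the 9 markers, 1 was called higher in LMPP than in HSC (1.23% of all genes were). Flt3, also the marker of LMPP, is among the 9 and averaged 7.25 in HSC and 10.61 in LMPP. The part of dendritic cells in the Itgax level was not tested.

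Itgam, the alpha chain CD11b of myeloid cells, measured 6.02 and 5.53 in LMPP, 5.75 and 5.42 in CLP, 5.87 and 5.63 in ETP, 5.22 and 5.24 in HSC, 5.17 in DN2, and 4.80 and 5.06 in DN3. Its mean was higher in LMPP, CLP and ETP than in HSC, DN2 and DN3, and both DN3 arrays were the lowest of all. Neither LMPP against HSC (adjusted p = 0.19) nor DN2 against ETP (adjusted p = 0.524) was called by limma. DN3 was 1.77-fold below ETP (adjusted p = 0.0207), a call lost without either ETP or either DN3 array (adjusted p from 0.0554 to 0.183). The F test call (adjusted p = 0.0399) was lost without HSC replicate 1 or 2, CLP replicate 1, ETP replicate 1 or 2, or DN3 replicate 1 or 2 (adjusted p from 0.0516 to 0.182), and with quantiles normalized once more, centred arrays or array weights (adjusted p from 0.0547 to 0.0764). All its values lay below the gene median. Markers of other myeloid cells were also called lower in DN3 than in ETP, as were 3.89% of all genes. They were 5 of 9 for dendritic cells, 2 of 8 for neutrophils, 2 of 7 for mast cells and basophils, and 1 of 8 for macrophages. The part of such cells in the Itgam level was not tested.

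Itgal, the alpha chain of LFA-1, ranged from 6.41 in HSC to 7.80 in ETP and was not called over the populations (adjusted p = 0.0736). Its ETP arrays (7.80 and 7.54) were the highest of all. Itgad, which stayed between 5.25 and 5.76, was not called either.

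Itgb7 and its partner Itgae differed in opposite directions between ETP and DN3, but the Itgae call was lost without any 1 of 8 arrays. Itga4, which can also pair with beta 7, is described above. Itgb7 measured 6.45 and 6.30 in ETP, 5.99 in DN2, and 5.71 and 5.53 in DN3, against 5.99 and 6.07 in HSC, 6.21 and 6.23 in LMPP, and 5.84 and 5.97 in CLP. DN3 was the lowest population and ETP the highest. DN3 was 1.69-fold below ETP (difference -0.76 ± 0.12, SE; adjusted p = 0.00264), and this held without each array in turn. The F test call (adjusted p = 0.0154) was lost without ETP replicate 1 (adjusted p = 0.0601), DN3 replicate 1 (adjusted p = 0.0504) or DN3 replicate 2 (adjusted p = 0.11).

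Itgae, the alpha chain CD103 that pairs with beta 7 and binds E-cadherin, measured 5.44 and 5.66 in DN3 and between 4.71 and 5.10 on all other arrays. The DN3 arrays stood above every other one. DN3 was 1.45-fold above ETP (adjusted p = 0.0451), while the F test lay at the threshold (adjusted p = 0.0499). Without DN3 replicate 2 these became adjusted p = 0.373 and 0.448. The comparison was lost when any LMPP, CLP, DN3 or ETP array was left out (adjusted p from 0.0506 to 0.373), with the replicate number as a block (adjusted p = 0.0529) and in a fit of the 2 groups alone (adjusted p = 0.0535). The F test was lost with these same 8 arrays left out singly (adjusted p from 0.0585 to 0.448), without HSC replicate 1 (adjusted p = 0.0642), with the block (adjusted p = 0.0627) and with array weights (adjusted p = 0.0631).

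The platelet chain Itga2b (CD41), which pairs with beta 3, was highest in HSC. It measured 6.79 and 6.70 in HSC against 6.26 and 6.00 in LMPP, 6.03 and 5.95 in CLP, 6.10 and 6.10 in ETP, 6.28 in DN2, and 5.96 and 6.01 in DN3, and both HSC arrays lay above all others. LMPP was 1.53-fold below HSC (adjusted p = 0.0214). That call was lost when LMPP replicate 2 (adjusted p = 0.144) or HSC replicate 1 (adjusted p = 0.106) was left out and in a fit of the 2 groups alone (adjusted p = 0.183). The F test call (adjusted p = 0.0098) was lost without HSC replicate 1 (adjusted p = 0.0706). Megakaryocyte and platelet markers were also high in HSC: 7 measured genes averaged 7.80 and 7.52 there against 5.69 to 6.18 elsewhere. Of the 7, 5 were called lower in LMPP than in HSC (1.71% of all genes were). Pf4 stood at 10.96 in HSC and 4.75 to 5.53 elsewhere, and Ppbp at 5.06 in HSC and 4.01 to 4.35 elsewhere. Vwf, at 6.27 in HSC and 5.79 to 5.96 elsewhere, was not called in the F test (adjusted p = 0.124). The part of megakaryocytes and platelets in the Itga2b level was not tested.

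Itgb3, the beta chain of that pair, measured between 5.49 and 6.03 over all arrays and was not called (adjusted p = 0.93 in the F test). Itgav, the alpha chain of vitronectin receptors, measured 6.61 and 6.56 in DN3 and 6.84 to 7.29 on all other arrays. DN3 was 1.53-fold below ETP (adjusted p = 0.0296), although the F test did not call the gene (adjusted p = 0.132). The call was lost without either ETP or either DN3 array (adjusted p from 0.075 to 0.218) and after quantiles were normalized once more (adjusted p = 0.0835). Its partners Itgb5, Itgb6 and Itgb8 were not called over the populations.

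Of the immunoglobulin-type genes, Vcam1 and Pecam1 were called and Icam1 and Icam2 were not. Vcam1, known mainly as a ligand of alpha 4 integrins on stroma and endothelium and also carried by HSC, measured 6.82 and 5.89 in HSC, a mean of 5.14 in LMPP (SD 0.20, n = 2), 5.22 and 5.10 in CLP, 5.55 and 5.56 in ETP, 5.15 in DN2, and 5.07 and 5.09 in DN3. Both HSC arrays lay above all others but differed widely from each other, and only HSC replicate 1 stood above the gene median. LMPP was 2.33-fold below HSC (difference -1.22 ± 0.24, SE; adjusted p = 0.021). The difference was -1.69 without HSC replicate 2 and -0.76 without HSC replicate 1. The call was lost without LMPP replicate 1 (adjusted p = 0.0619), LMPP replicate 2 (adjusted p = 0.138) and in a fit of the 2 groups alone (adjusted p = 0.202), and the F test call (adjusted p = 0.0224) without ETP replicate 2, DN3 replicate 1 or DN3 replicate 2 (adjusted p from 0.0504 to 0.0672).

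The mean over 9 endothelial and stromal markers was higher in HSC too, at 6.41 and 6.12 against 5.52 to 5.89 elsewhere. Of these 9, 1 was called lower in LMPP than in HSC (1.71% of all genes were). Tek, an angiopoietin receptor that HSC also carry, averaged 7.37 in HSC and 4.60 to 4.79 elsewhere. Cdh5 (6.20) and Kdr (5.39) were also highest in HSC. The stromal genes Col1a1 (7.03 in HSC, 7.03 to 7.11 elsewhere), Col3a1 (6.24 and 6.24 to 6.37) and Pdgfra (4.98 and 4.99 to 5.18) did not stand higher in HSC. Pdgfrb was highest in ETP (7.62, with 6.28 in HSC). The mean over 8 macrophage markers was 5.22 and 5.38 in HSC and 5.12 to 5.37 elsewhere. Adgre1 stood at 4.35 in HSC (4.23 to 4.49 elsewhere), Vsig4 at 3.91 (3.51 to 4.05) and Cd68 at 7.21 (6.44 to 7.11). The part of endothelial cells, stromal cells and macrophages in the Vcam1 level was not tested.

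Pecam1 (CD31), an adhesion receptor of endothelium and leukocytes, measured 9.19 and 9.18 in CLP and 9.13 in DN2, against 8.36 and 8.01 in HSC, 8.12 and 8.73 in LMPP, 8.47 and 8.65 in ETP, and 8.18 and 8.46 in DN3. CLP and DN2 stood above all other arrays. The F test called it (adjusted p = 0.0292) and none of the 7 comparisons did. The closest were CLP against LMPP, 1.69-fold higher (adjusted p = 0.145), and ETP against CLP, 1.54-fold lower (adjusted p = 0.192). The F test call was lost without HSC replicate 2 or any 1 of the CLP, ETP and DN3 arrays (adjusted p from 0.0539 to 0.103), and with centred arrays (adjusted p = 0.0636) or array weights (adjusted p = 0.0599). Icam2 was highest in HSC (8.26 and 8.07 against 7.52 to 7.97 elsewhere; adjusted p = 0.0775 in the F test), and Icam1 ranged from 6.63 to 7.25 (adjusted p = 0.51).

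**Figure D3:**
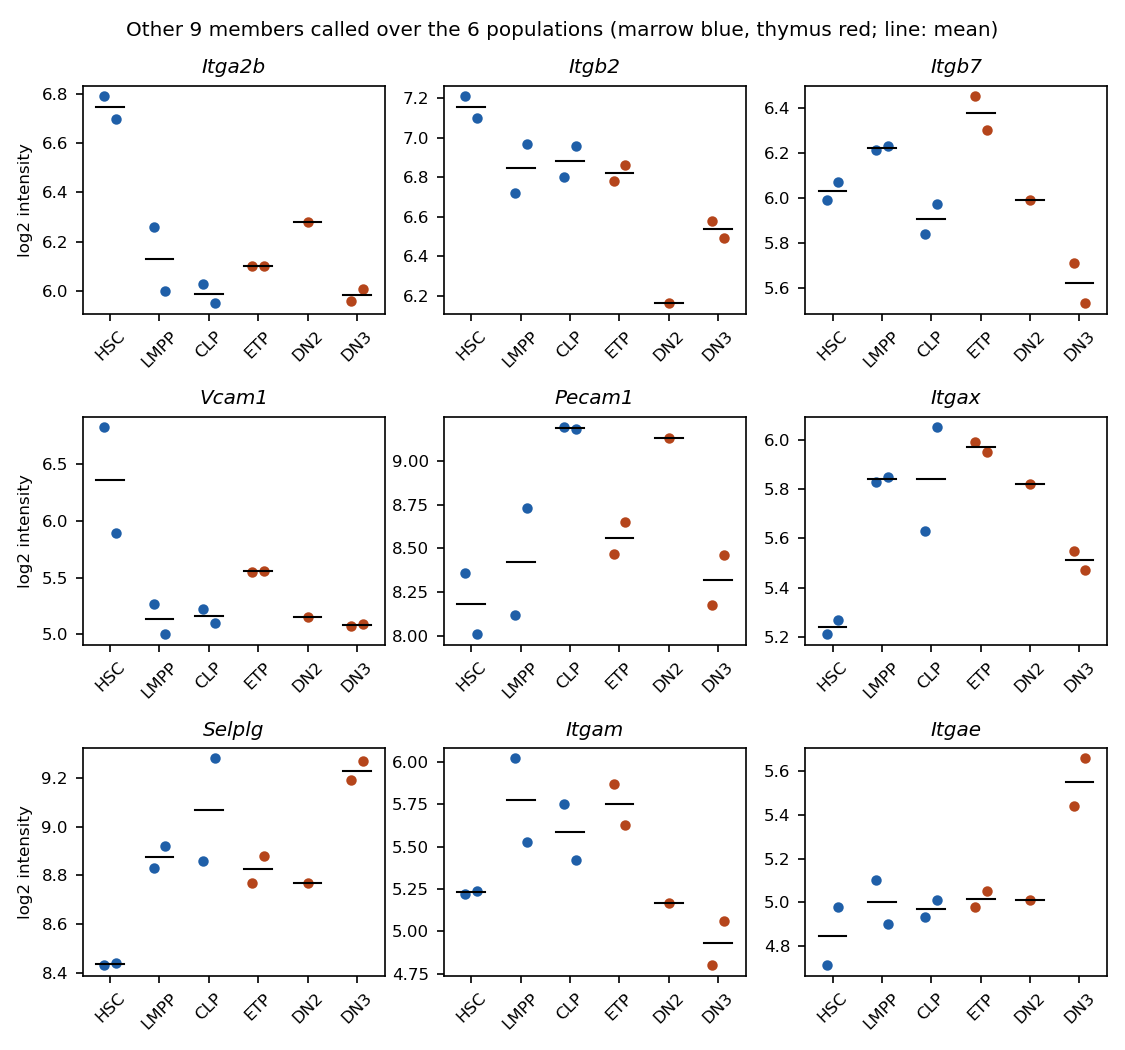
Log2 intensity on each array (points) and population mean (line) for the 9 other members called in the F test, marrow in blue and thymus in red; each panel has its own vertical scale. Itga2b and Vcam1 are highest in HSC, Itgae and Selplg in DN3, and Itgax and Selplg lowest in HSC.

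Read by comparison, DN3 against ETP had the most members called, and also the most of all genes (1310). At an unadjusted p under 0.05, 13 members differed there and 14 in LMPP against HSC. In DN3 against ETP, 3 of 34 were higher (Epcam, Itga6, Itgae; 2.68% of all genes were) and 6 were lower (Cd34, Cd44, Itga9, Itgam, Itgav, Itgb7; 3.89% of all genes). The median difference of the members was -0.09, against -0.00 over all genes. The 3 higher became 1 without ETP replicate 1 or DN3 replicate 2, and the lower count stayed between 4 and 7. The step from DN2 to DN3 had Epcam as its 1 higher member (0.702% of all genes) and Cd34, Cd44 and Itga4 as its 3 lower ones (1.09%). The step from ETP to DN2, with its single DN2 array, had Itga4 higher (0.321% of all genes) and Cd34 and Cd44 lower (0.677%). The 2 lower became 1 without ETP replicate 2 or either DN3 array. These 3 comparisons share arrays, so their counts are not independent.

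**Figure D4:**
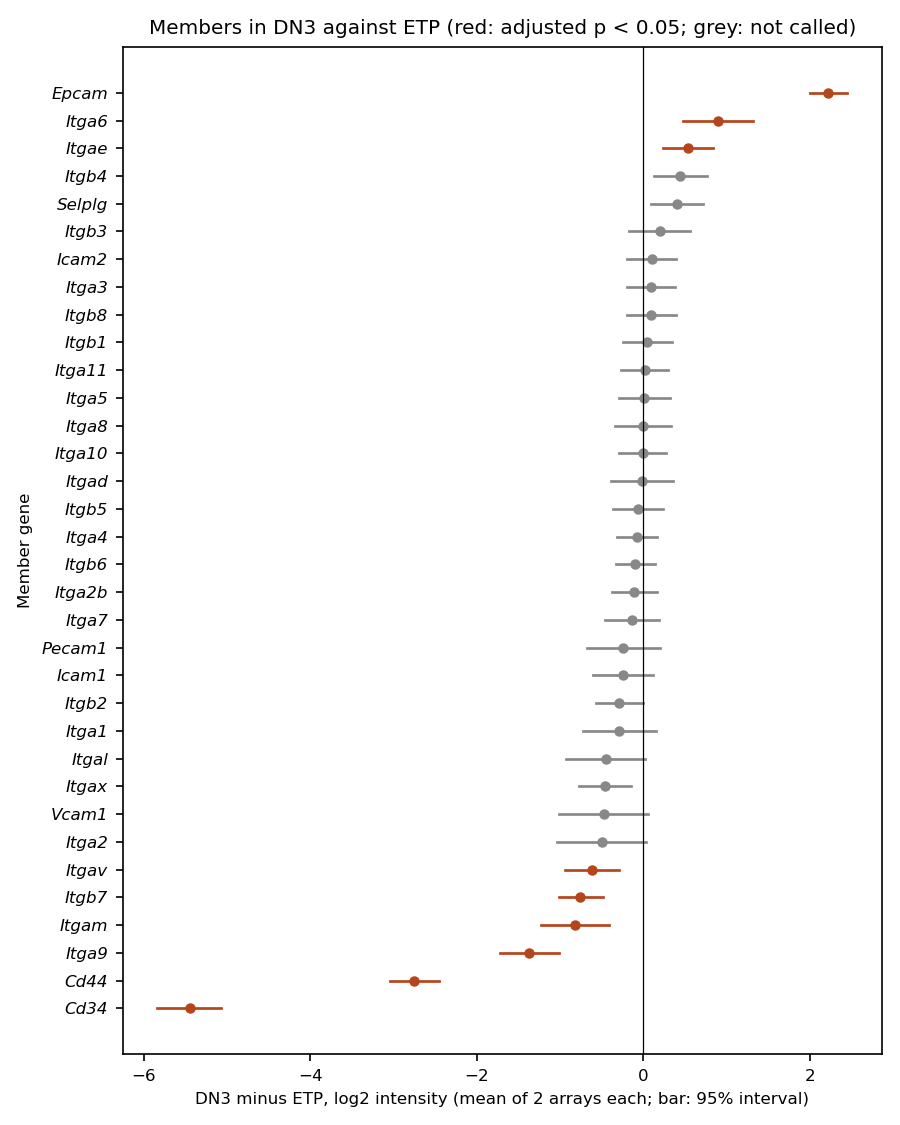
Difference between DN3 and ETP for each of the 34 members (points, log2 intensity, 2 arrays each) with its 95% interval from limma (bars); red marks adjusted p under 0.05. Cd34 and Cd44 lie at -5.45 and -2.75 and Epcam at 2.22, and most other members lie near 0.

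Among the comparisons with marrow, LMPP against HSC had 2 members higher (Cd34 and Itgax; 1.23% of all genes were) and 3 lower (Itga2b, Itga6 and Vcam1; 1.71% of all genes). The 2 higher became 0 without LMPP replicate 2 and 1 without any other 1 of the HSC, LMPP, ETP and DN3 arrays, and the 3 lower became 1 without LMPP replicate 2. CLP against LMPP had Itga4 higher (0.602% of all genes) and Cd34 lower (0.542%). ETP against LMPP had Itga4 and Itga9 higher (1.44% of all genes), and with limma none of the 34 was lower (0.868% of all genes; 1 at an unadjusted p under 0.05). Without any 1 of the LMPP and ETP arrays, 1 was higher. ETP against CLP had Cd34 and Itga9 higher (1.41% of all genes), and again none lower by limma (1.1% of all genes; 2 at an unadjusted p under 0.05). Without ETP replicate 2, 1 was higher.

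**Figure D5:**
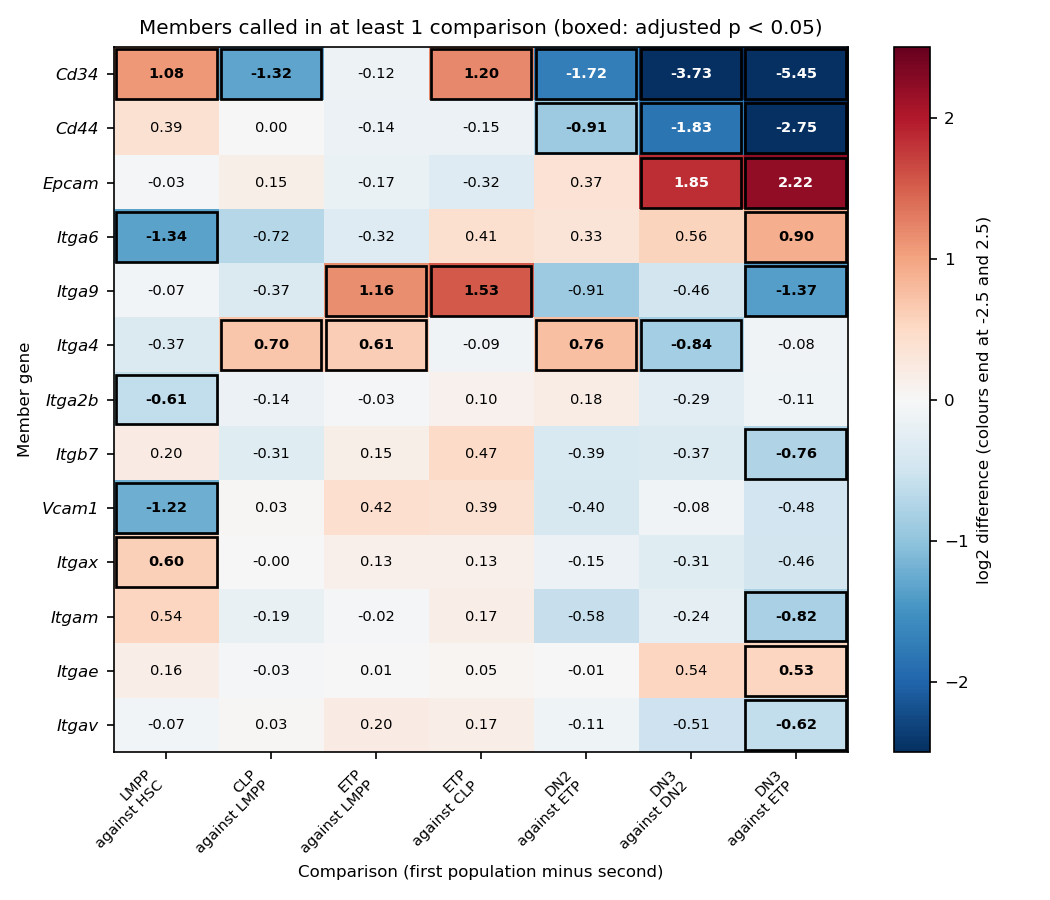
Log2 difference (colour and number, first population minus second) in the 7 comparisons for the 13 members called in at least 1 of them, with boxes around adjusted p under 0.05. Cd34 is boxed in 6 comparisons and Itga4 in 4, and DN3 against ETP holds 9 of the boxes.

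Genes that switch integrins on or link them to the cytoskeleton were read from a list of 35, of which 34 were measured. Over the populations 11 of them were called (12.2% of all genes were), and between 8 and 13 when 1 array was left out. In DN3 against ETP, 2 of the 34 were higher (2.68% of all genes were) and 6 lower (3.89%), with a median of -0.01 over the list. Skap1, an adaptor of T cells that couples receptor signals to integrin activation, rose from 5.49 in ETP through 7.32 in DN2 to 8.90 in DN3, where it was 10.6-fold higher in DN3 than in ETP (adjusted p = 2.77e-07). Fyb, its binding partner ADAP, rose 3.28-fold over the same span (adjusted p = 1.75e-05). Skap2, the related adaptor, went the other way, from 9.09 in ETP to 8.68 in DN2 and 7.48 in DN3, 2.3-fold lower in DN3 than in DN2 (adjusted p = 0.00857), a call lost without DN3 replicate 1 (adjusted p = 0.0697). Tspan32, a tetraspanin of blood cells, averaged 8.52 in HSC, 7.83 in ETP and 5.46 in DN3 (F test, adjusted p = 2.11e-05). In LMPP against HSC, 4 of the 34 were lower (1.71% of all genes were), among them Slc3a2, an integrin-associated transporter chain (1.5-fold, adjusted p = 0.0275), and Cd9, a tetraspanin (1.72-fold, adjusted p = 0.0371). Those 4 became 0 without HSC replicate 1 or either LMPP or DN3 array, and 2 without either ETP array. Slc3a2 and Cd9 each lost their call without any 1 of the HSC, LMPP and DN3 arrays (adjusted p from 0.0505 to 0.152 and from 0.0526 to 0.205).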

How the data were processed

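The authors deposited log2 intensities, 1 per probe set and array, made with RMA per the submitters' processing notes (background correction, quantile normalization and probe set summaries). That the scale is log2 follows from the range of the values. For RMA no version, and for the chip no genome build, is given in the sources used here. RNA was extracted with Trizol and labelled with biotin by an Affymetrix whole-transcript kit, per the labels. Where the labels of ETP, DN2 and DN3 name both bone marrow and thymus, the tissue label (thymus) was followed.

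Of 35556 probe sets, 21789 had 1 gene symbol in the platform annotation, 1621 several and 12146 none. Those with 1 symbol gave 19938 genes, with no filter on dim genes, and all 34 members matched a RefSeq entry by Entrez ID. Limma 3.58.1 in R 4.3.3 fitted 6 population means to the 11 arrays (5 residual degrees of freedom), so the lone DN2 array takes its spread from the rest. Pairwise p-values are two-sided, and every p-value was adjusted over all 19938 genes (Benjamini-Hochberg). The fit was tested on simulated data. The number of arrays limits the precision.

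The members, lists and comparisons were chosen with earlier results of these data known. Every member could be named, with every array's value where the F test called it; of each list up to 4 genes by F test and 2 per comparison, by smallest p. Alternatives covered dim genes, normalization, probe sets, prior, array weights, thresholds, fits of 2 groups alone, each array left out, and a replicate block. Protein sequences were not used here. Tables were made in Python 3.11.15 with pandas 2.3.3, figures with matplotlib 3.10.9.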

Additional observations from a re-analysis of the deposited data

How the results depend on the processing

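None of the 27 calls of a member in a comparison changed direction where recomputed under an alternative, but many counts moved. Counts and F tests have no direction that could change, and the calls had been picked for their difference. The F test called 15 members, 7 of them at adjusted p under 0.01 and 7 with a span of at least 2-fold. In LMPP against HSC the 2 higher members became 1 with either filter on dim genes, with arrays centred on their medians, with array weights, in the fit of the 2 groups alone, at adjusted p under 0.01 and with at least 2-fold; the 3 lower became 0 in the fit of the 2 groups alone and 1 at adjusted p under 0.01. In CLP against LMPP the 1 higher became 0 in the fit of the 2 groups alone and under both stricter thresholds, and the 1 lower became 0 in the fit of the 2 groups alone. In ETP against LMPP the 2 higher became 0 in the fit of the 2 groups alone and 1 under both stricter thresholds. In ETP against CLP the 2 higher became 4 when quantiles were normalized once more. In DN2 against ETP both stricter thresholds left 0 higher and 1 lower. In DN3 against DN2 the 1 higher, Epcam, became 0 under the filter on a mean above 6, which removes Epcam. In DN3 against ETP the 3 higher became 1 under that filter and under both stricter thresholds, and the 6 lower became 3 with at least 2-fold. Each filter kept 18 of the 34 members.

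Leaving out 1 array at a time gave 7 to 15 members in the F test, 0 to 2 higher and 1 to 4 lower in LMPP against HSC, 0 to 1 higher and 0 to 1 lower in CLP against LMPP, 1 to 2 higher in ETP against LMPP, 1 to 3 higher in ETP against CLP, 0 to 1 higher and 1 to 3 lower in DN2 against ETP, 2 to 3 lower in DN3 against DN2, and 1 to 3 higher and 4 to 7 lower in DN3 against ETP. Of the 27 calls of a member in a comparison, 12 held without each array in turn.

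With the replicate number as a block, the 2 members higher in LMPP against HSC became 1 (Itgax, adjusted p = 0.0621) and the 1 higher in DN2 against ETP became 0, while the other counts of members stayed within 1.5 times. Itga2 gained an F test call with the block (adjusted p = 0.0169). The check did not show that the numbers pair all the arrays. Deviations of same-numbered arrays correlated with r from 0.11 to 0.283 among LMPP, CLP and ETP and from 0.0703 to 0.119 between DN3 and these, but from -0.258 to -0.0876 between HSC and the others. The arrays were therefore treated as sharing only a number. Of 1284 counts of the 4 context lists under the alternatives, 1088 stayed within 1.5 times of the reported ones. Signal near background limits what can be said of the dim members.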

Other observations

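Genes that bear on adhesion but are not members were read from 3 further lists, whose genes were chosen with earlier results of these data known. Of 28 measured other homing and adhesion receptors, 17 were called over the populations (12 to 17 when 1 array was left out; 12.2% of all genes were). Mpzl2, a homophilic adhesion protein of thymus, rose from 4.84 in ETP through 5.87 in DN2 to 8.29 in DN3, and was 10.9-fold higher in DN3 than in ETP (adjusted p = 5.43e-07). Bst1, a surface enzyme of marrow and early lymphoid cells, went from 5.91 in ETP to 7.13 in DN2 and 9.34 in DN3 (10.7-fold, adjusted p = 2.8e-06). Emcn, an endothelial sialomucin that HSC also carry, went the other way from marrow on, at 7.73 in HSC, 7.62 in LMPP, 6.32 in CLP, 5.23 in ETP and 4.69 in DN3. S1pr1, the receptor for exit into blood, was 2.46-fold lower in LMPP than in HSC (adjusted p = 0.000233), and Emb, which promotes integrin-mediated adhesion, 2.37-fold higher (adjusted p = 0.000338).

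Of 25 measured ligands and counter-receptors of the members, 5 were called, and 3 without either DN3 array; 12.2% of all genes were. Icam4, a ligand of integrins on red cell precursors, averaged 8.35 in HSC and 5.85 to 6.11 elsewhere, 5.31-fold lower in LMPP (adjusted p = 0.000156). Has2, an enzyme that makes hyaluronan, the ligand of CD44, averaged 6.61 in ETP and 5.22 to 5.47 elsewhere, 2.23-fold higher in ETP than in LMPP (adjusted p = 0.0056), a call lost without LMPP replicate 2 (adjusted p = 0.0535) and in a fit of the 2 groups alone (adjusted p = 0.0941). Cdh1, the E-cadherin bound by CD103, averaged 6.04 in DN3 and 5.10 to 5.47 elsewhere (F test, adjusted p = 0.00747), a call lost without DN3 replicate 1 (adjusted p = 0.104) or DN3 replicate 2 (adjusted p = 0.0811). Of 15 measured genes that build selectin ligands, 4 were called (3 to 5 when 1 array was left out; 12.2% of all genes were). Gcnt1, the branching enzyme for selectin ligands on PSGL1, stood at 7.88 in HSC, 7.01 in DN2 and 5.17 in DN3, and was 3.58-fold lower in DN3 than in DN2 (adjusted p = 0.000219). C1galt1, which makes the core those branches start from, was 2.81-fold higher in DN3 than in ETP (adjusted p = 0.000299).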
